A study of Homo sapiens with 2 samples.

Results

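The expression of 9 genes that characterise eosinophils was described in nonadherent hematopoietic cells made from a human induced pluripotent stem cell line. The genes were taken by symbol, and they are 9 of the 32738 genes in the count matrix. They comprise 4 genes of granule and cytoplasmic crystal proteins (EPX, PRG2, PRG3 and CLC), 2 ribonuclease genes (RNASE2 and RNASE3) and 3 receptor genes (IL5RA, CCR3 and SIGLEC8). The cells came from the line iPS11, an established stem cell line, and the floating cells were collected on day 5 of the endothelial-to-hematopoietic transition (EHT), the step in which hemogenic endothelium releases blood progenitors. The coatings compared were uncoated plastic, VCAM1, DLL4 and DLL4+VCAM1. The medium shared by all 4 contained SCF, IL-3, thrombopoietin and other cytokines, and IL-5, the eosinophil growth factor, is not among those the study's methods list. Cells of the 4 coatings were marked with oligonucleotide-tagged antibodies (hashtags 0252, 0253, 0254 and 0255), pooled and sequenced as 1 library, and the sources used here pair no hashtag with a coating, so values are given by hashtag number. The data are from 1 cell line and 1 library without replicates, so no difference between hashtags or cell groups was tested, and the 95% intervals below (exact Poisson for levels, Clopper-Pearson for shares of cells) cover counting error only and not the spread between cells or cultures.

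Of 10836 barcodes, 8488 had a single hashtag, 1339 carried several and 1009 had none. After removal of cells above 36000 unique molecular identifiers (UMIs), 6000 genes or 18% mitochondrial UMIs, 7550 cells remained, with 1571 to 2136 cells per hashtag, 28522216 to 40416478 UMIs per hashtag and a median of 18318.5 UMIs per cell. Levels are given as CPM, for which all UMIs of a gene in a group of cells were divided by the group's total UMIs and multiplied by 1000000. The library was read from transcript ends, so a UMI stands for a transcript whatever its length.

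Eosinophils are granulocytes that store cationic proteins and ribonucleases in specific granules and depend on IL-5 for their growth and survival. They arise in the bone marrow from CD34+ progenitors under GATA factors and C/EBPε, close to mast cells and basophils in the lineage tree. Transcription of the granule genes is a feature of immature cells, whereas receptors such as CCR3 and Siglec-8 mark later stages. RNASE2 and RNASE3, and likewise PRG2 and PRG3, are duplicated genes of similar sequence, so reads that match both copies of a pair may have affected their counts.

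The genes of each duplicated pair lie on the same chromosome and strand. On hg19, PRG2 spans chr11:57154253-57158123 and PRG3 chr11:57144242-57148623, both on the minus strand, while RNASE3 spans chr14:21359544-21360507 and RNASE2 chr14:21423646-21424595, both on the plus strand. EPX lies at chr17:56270087-56282535 (+), CLC at chr19:40221895-40228669 (-), IL5RA at chr3:3108008-3168297 (-), CCR3 at chr3:46172382-46308197 (+) and SIGLEC8 at chr19:51954101-51961710 (-). The annotation lists all 9 as protein-coding. RefSeq promoters on GRCh38.p14 were matched for 7 of the 9 genes. The 250 bases before the start site are printed for the 3 matched genes with the largest differences between CPA3-positive and CPA3-negative cells and for the ribonuclease pair, which was lower in CPA3-positive cells, read 5′ to 3′ on the strand of the gene. Capitals mark matches to the GATA motif letters AGATAA or TGATAA or to the C/EBP motif letters TTGCNNAA, searched on both strands.
IL5RA, chr3:3110375-3110624 (-): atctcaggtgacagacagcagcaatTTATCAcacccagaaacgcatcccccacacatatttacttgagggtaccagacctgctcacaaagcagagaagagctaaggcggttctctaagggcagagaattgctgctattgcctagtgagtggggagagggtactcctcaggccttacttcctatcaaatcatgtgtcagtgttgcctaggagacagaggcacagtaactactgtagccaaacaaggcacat
CLC, chr19:39738030-39738279 (-): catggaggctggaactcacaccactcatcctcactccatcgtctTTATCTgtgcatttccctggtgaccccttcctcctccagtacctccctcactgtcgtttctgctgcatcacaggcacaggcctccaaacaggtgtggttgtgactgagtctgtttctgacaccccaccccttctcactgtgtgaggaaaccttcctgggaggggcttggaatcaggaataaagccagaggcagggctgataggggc
PRG3, chr11:57381151-57381400 (-): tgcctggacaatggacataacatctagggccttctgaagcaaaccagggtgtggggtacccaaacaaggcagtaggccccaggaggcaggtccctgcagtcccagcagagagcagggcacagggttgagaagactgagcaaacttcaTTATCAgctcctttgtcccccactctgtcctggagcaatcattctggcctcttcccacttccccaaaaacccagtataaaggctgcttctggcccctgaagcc
RNASE2, chr14:20955237-20955486 (+): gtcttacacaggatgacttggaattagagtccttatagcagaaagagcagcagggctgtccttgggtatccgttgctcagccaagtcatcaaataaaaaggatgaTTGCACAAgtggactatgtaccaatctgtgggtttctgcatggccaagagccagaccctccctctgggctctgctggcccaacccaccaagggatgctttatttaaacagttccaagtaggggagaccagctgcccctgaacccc
RNASE3, chr14:20891135-20891384 (+): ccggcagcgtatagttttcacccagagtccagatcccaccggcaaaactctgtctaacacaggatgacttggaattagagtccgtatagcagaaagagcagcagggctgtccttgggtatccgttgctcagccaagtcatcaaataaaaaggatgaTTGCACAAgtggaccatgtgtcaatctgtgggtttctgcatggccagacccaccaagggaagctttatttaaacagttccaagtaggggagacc

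IL5RA, CLC and PRG3 each held 1 GATA match, at 225, 206 and 103 bases before the start, all 3 on the strand opposite to the gene. Either form of the GATA motif occurred in 14.6% of the 35116 RefSeq promoters of this length. RNASE2 and RNASE3 each held 1 C/EBP match, at 145 and 94 bases before the start, and so did CCR3, whereas this motif occurred in 9.05% of all promoters. The PU.1 letters GAGGAAGT, present in 2.17% of promoters, were in none of the matched windows, and SIGLEC8 held no match to any motif. The RNASE2 and RNASE3 windows aligned over 199 bases, of which 192 (96.5%) were identical. A match describes letters only and is not evidence of binding.

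Transcripts of the granule genes were abundant but sat in few cells. CLC, the Charcot-Leyden crystal protein, had the most UMIs, 21940, of which 95.8% came from 184 cells with at least 10 UMIs and up to 723 in a single cell. EPX, the eosinophil peroxidase, had 11193 UMIs in 1332 cells (17.6% of 7550), with 80.7% of them in 196 cells. PRG3, a homolog of major basic protein, had 9672 UMIs in 972 cells, 85.3% of them in 122 cells. PRG2, the major basic protein itself, had 3587 UMIs in 767 cells and a maximum of 44 per cell. Most cells with a UMI of these genes carried 1 or 2 of them (903 cells for EPX, 470 for PRG2, 717 for PRG3 and 668 for CLC), so the share of cells with a UMI and the level describe different things. RNASE2, the eosinophil-derived neurotoxin, was spread more widely, with 15568 UMIs in 3014 cells (39.9%), and RNASE3, the eosinophil cationic protein, had 1690 UMIs in 987 cells. The receptors were scarce. IL5RA, the ligand-binding chain of the IL-5 receptor, had 244 UMIs in 162 cells, SIGLEC8, an inhibitory lectin of eosinophils and mast cells, 172 UMIs in 162 cells, and CCR3, the eotaxin receptor, 77 UMIs in 75 cells with at most 2 per cell.

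The first question was in which progenitor compartments these genes were found. CPA3-positive cells, with at least 3 UMIs of the mast cell and basophil carboxypeptidase CPA3, numbered 117 (1.55% of cells). ELANE+PRTN3+AZU1-positive cells, with at least 3 UMIs of each of these azurophil granule genes of the neutrophil lineage, numbered 142 (1.88%). CD34/GATA2-positive cells, with a UMI of each progenitor gene, numbered 2812 (37.2%), and 4556 cells were in no compartment. CPA3-positive and CD34/GATA2-positive cells shared 73 cells, and no cell was both CPA3-positive and ELANE+PRTN3+AZU1-positive. Macrophage-like cells with at least 3 UMIs of each of C1QA, C1QB and C1QC (418 cells) served as a reference, since granulocyte granule transcripts in them can come from free RNA in the droplets.

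**Figure D1:**
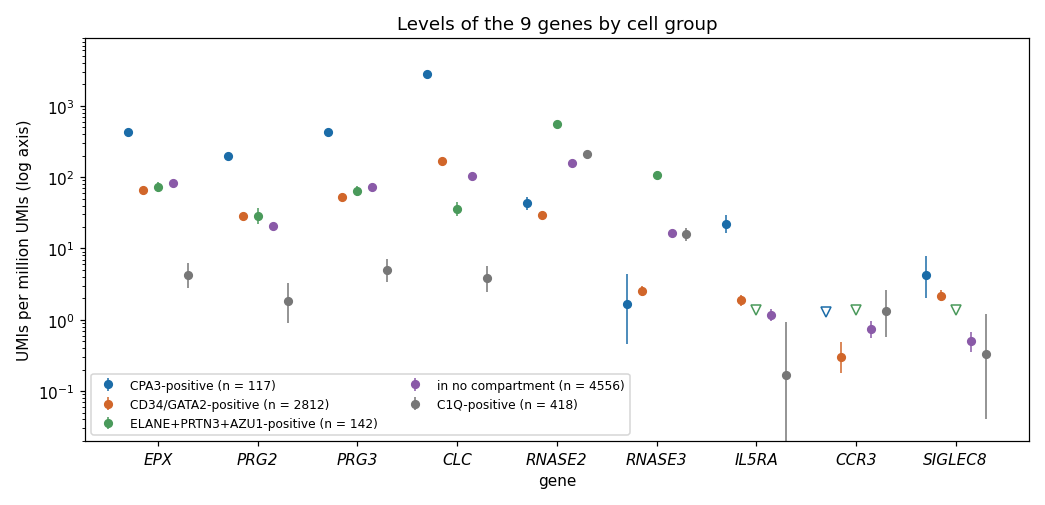
Level of each gene (CPM, log axis) in 5 cell groups, with exact Poisson 95% intervals as bars and open triangles where no UMI was found, placed at the level that 3 UMIs would give. EPX, PRG2, PRG3, CLC and IL5RA are highest in the CPA3-positive cells and RNASE2 and RNASE3 in the ELANE+PRTN3+AZU1-positive cells.

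CPA3-positive cells had high levels of the granule genes and IL5RA and low levels of the ribonuclease genes. Most UMIs of the granule genes nevertheless lay outside these few cells. They held 1006 of 11193 UMIs of EPX, 475 of 3587 of PRG2, 1019 of 9672 of PRG3 and 6589 of 21940 of CLC. Cells of no compartment held 6551, 1674, 5801 and 8452 UMIs of these genes. CLC reached 2780.3 CPM in CPA3-positive cells against 83.9 CPM in cells with no CPA3 UMI, a 33.1-fold difference (95% interval 32.1 to 34.2). IL5RA was 22.4 CPM against 1.06 CPM, 21.2-fold (15.1 to 29.3). PRG2 was 200.4 against 18.2 CPM (11-fold), PRG3 429.98 against 51.3 CPM (8.38-fold) and EPX 424 against 63.9 CPM (6.64-fold, 6.21 to 7.09). Together with SIGLEC8 (4.22 against 1.09 CPM, 3.89-fold, 1.82 to 7.36), 6 of the 9 genes were at least 2-fold higher, where 3.96% of the 14767 genes with at least 50 UMIs were. RNASE2, at 43.0 against 114.9 CPM, and RNASE3, at 1.69 against 12.6 CPM, were 2.67- and 7.43-fold lower, beside 13.3% of all genes that were at least 2-fold lower. No CCR3 UMI was found in CPA3-positive cells, which allows up to 1.27 CPM, above its level of 0.582 CPM in CPA3-negative cells. The size of these folds depended on which cells were counted. With a single CPA3 UMI as the threshold they were 10.1 for CLC, 7.78 for IL5RA, 5.16 for PRG2 and 3.51 for EPX. A limit of 10% on mitochondrial UMIs left 736 cells, 6 of them CPA3-positive, with folds of 8.80 for CLC, 1.94 for PRG2, 1.61 for EPX and 0.547 (0.177 to 1.28) for PRG3.

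These levels came from a portion of the CPA3-positive cells. EPX was seen in 78 of the 117 cells (66.7%, 57.4 to 75.1%), PRG2 in 67, CLC in 55 and PRG3 in 53, and the median cell held 2 UMIs of EPX, 1 of PRG2 and none of CLC. The single cell with the most PRG3 carried 21.6% of all its UMIs in this group, and for CLC the top cell carried 11%. Without the 2 highest cells for each gene, CLC was 2297.8 CPM, EPX 349 CPM and PRG3 292 CPM. The levels also rose with the number of CPA3 UMIs up to the thinly filled top class. CLC was 83.9 CPM at 0, 419.6 at 1 or 2, 2664 at 3 to 9 and 4489 at 10 or more CPA3 UMIs, and IL5RA was 1.06, 5.10, 20.3 and 52.9 CPM. EPX, in contrast, was 426 CPM at 3 to 9 and 409.9 CPM in the 10 cells with 10 or more CPA3 UMIs. Within the CPA3-positive cells, the 44 cells without the CD34/GATA2 combination had more CLC (5371 against 1816 CPM), EPX (805 against 283 CPM), PRG3 (885 against 261 CPM) and IL5RA (60.6 against 8.11 CPM) than the 73 cells with it. In these 44 cells 2 cells carried 59.6% of the PRG3 and 37.3% of the EPX UMIs, and without them PRG3 was 379.5 CPM and EPX 536 CPM. Median depth was 12879 UMIs in the former and 24144 in the latter.

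The difference had the same direction in each hashtag for the 4 granule genes and IL5RA. The CPA3-positive cells numbered 45, 29, 22 and 21 in hashtags 0252 to 0255. The CLC fold was 19.3, 35.1, 35.7 and 74.1, the PRG2 fold 8.70, 11.5, 10.8 and 15.3, and the EPX fold 4.19, 6.90, 5.65 and 16.8. PRG3 gave 4.20, 13.1, 6.09 and 4.84. For IL5RA, with few UMIs, the fold was 15.5 (8.86 to 26.3), 17.6, 14.2 (2.66 to 49.0) and 109.8 (36.2 to 367.7). SIGLEC8 was higher in CPA3-positive cells in hashtags 0252 and 0253, with intervals that included 1 in the others. The lower level of the ribonuclease genes was less even. The RNASE2 ratio was 0.185, 0.479, 0.381 and 0.877, with an interval of 0.500 to 1.43 in hashtag 0255. The RNASE3 ratio was 0.107 and 0.178 in hashtags 0252 and 0253. RNASE3 had no UMI in the CPA3-positive cells of 0254 and 0255, where the intervals reached 1.91 and 2.21.

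ELANE+PRTN3+AZU1-positive cells were rich in the ribonuclease transcripts. RNASE2 was found in 141 of the 142 cells at 559.8 CPM against 102 CPM in all other cells (5.46-fold, 5.15 to 5.79), and RNASE3 in 97 cells at 108 against 10.4 CPM (10.4-fold, 9.04 to 12). These were the only members at least 2-fold higher in these cells, where 7.39% of all genes were. RNASE2 was not limited to them, since it was 209.8 CPM in the C1Q-positive cells, with a UMI in 67.5% of them, and 157 CPM in the cells of no compartment. RNASE3 was 15.9 CPM in the C1Q-positive cells and 16.3 CPM in the cells of no compartment. The cells of no compartment held 12591 of the 15568 RNASE2 UMIs and 1309 of the 1690 RNASE3 UMIs. In the ELANE+PRTN3+AZU1-positive cells, EPX (73.8 CPM), PRG2 (28.4 CPM) and PRG3 (64.2 CPM) were within 1.13-fold of their level elsewhere. CLC was 4.37-fold lower in them (35.8 against 156 CPM). The EPX, PRG3 and CLC values rested on very few cells. For EPX, 2 cells carried 77.6% of the UMIs and the level without them was 16.7 CPM, and for CLC 1 cell carried 89.7%, with 3.25 CPM left without the top 2 cells, close to the 3.81 CPM of the C1Q-positive cells. For PRG3, 1 cell carried 51.4%, with 28.6 CPM left without the top 2 cells. PRG2 and PRG3 were seen in 35 and 41 of the 142 cells (24.6% and 28.9%), a larger share than the 2.63% and 6.94% of C1Q-positive cells at a similar median depth of 13639 against 12872 UMIs. IL5RA, CCR3 and SIGLEC8 had no UMI in these cells, which allows up to 1.38 CPM for each. In all other cells they were 1.74, 0.550 and 1.23 CPM, so for CCR3 and SIGLEC8 this limit was above the level elsewhere.

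The azurophil class depended on ELANE, the neutrophil elastase gene. When PRTN3 and AZU1 alone were required, a choice made once the data had been seen, 838 cells qualified, and EPX was 336 CPM, PRG3 301 CPM, CLC 421 CPM, PRG2 109.9 CPM and IL5RA 3.81 CPM in them. In the 548 of these without any ELANE UMI, EPX was 432 CPM and CLC 585 CPM. The levels of EPX and CLC in PRTN3- and AZU1-positive cells were thus higher where no ELANE UMI was seen.

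CD34/GATA2-positive cells differed little from other cells in most of the members. CLC (168 against 144 CPM), PRG2 (28.7 against 22.8 CPM), EPX (67.1 against 87.1 CPM), PRG3 (53.5 against 78.4 CPM) and IL5RA (1.88 against 1.60 CPM, interval of the ratio 0.903 to 1.52) were all within a factor of 1.46. SIGLEC8 was the exception upward, with 129 of its 172 UMIs in these cells (2.18 against 0.518 CPM, 4.21-fold, 2.96 to 6.10), where 3.56% of all genes were at least 2-fold higher. RNASE2 (29.8 against 166 CPM) and RNASE3 (2.54 against 18.6 CPM) were 5.59- and 7.31-fold lower and CCR3 (0.305 against 0.711 CPM) 2.33-fold lower, beside 8.21% of all genes. The 73 cells that were also CPA3-positive held 3135 of the 9957 CLC UMIs of this compartment. In the 2735 cells of this compartment alone, CLC was 119 CPM, PRG2 24.0 CPM, EPX 60.7 CPM and PRG3 47.3 CPM. EPX was seen in 22.5% of CD34/GATA2-positive cells and in 14.2% of cells in no compartment although its level was lower in the former, so over all cells the share and the level ran in opposite directions. In hashtag 0255 they did not, since EPX was 53.8 CPM in CD34/GATA2-positive cells and 25.2 CPM in cells of no compartment.

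The weak signals were read against the reference cells. In C1Q-positive cells EPX was 4.31 CPM with a UMI in 5.98% of cells, PRG2 1.82 CPM, PRG3 4.97 CPM and CLC 3.81 CPM, and in 86 COL1A1/COL3A1-positive stromal-like cells the same genes were between 2.16 and 5.05 CPM. Erythroid-like cells with HBD and KLF1 transcripts (265 cells) were close to this for CLC (6.47 CPM) but not for PRG2 (16.8 CPM, 13.6 to 20.5) and PRG3 (20.4 CPM, 16.9 to 24.5), the latter seen in 23.0% of the cells. Thinned to 5000 UMIs per cell, PRG3 was still seen in 7.17% to 9.81% of the erythroid-like against 1.92% to 4.81% of the C1Q-positive cells, the range over 10 random draws. For CCR3, 1.25% of cells in no compartment, 0.640% of CD34/GATA2-positive and 1.91% of C1Q-positive cells had a UMI, so that no group stood above the reference. IL5RA was seen in 25.6% of CPA3-positive and 0.239% of C1Q-positive cells.

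Cells that carried several of the genes at once were then counted. Over all cells, 402 had both EPX and PRG2, which was 30.2% of EPX cells and 52.4% of PRG2 cells and 2.89 times (2.61 to 3.18) the number given by independence within 10 groups of cells of like depth. PRG2 and PRG3, the duplicated pair, shared 402 cells, 3.88 times that number, and PRG2 and CLC shared 259, 2.72 times. The ratios were higher when cells with 1 or 2 UMIs were not counted. With at least 3 UMIs of each gene EPX and PRG2 shared 223 cells (12.7 times, 11.1 to 14.5), EPX and CLC 183 cells (14.2 times) and PRG3 and CLC 147 cells (19.2 times). IL5RA had the highest ratio of all pairs at 1 UMI, with PRG2. Of the 162 IL5RA cells, 132 (81.5%) had PRG2, 130 (80.2%) EPX, 118 (72.8%) PRG3 and 110 (67.9%) CLC, and with PRG2 the count was 8.05 times (6.74 to 9.55) that of independence. All 25 cells with at least 3 IL5RA UMIs also had at least 3 CLC UMIs. Conversely, IL5RA was seen in 9.76% of EPX cells and 17.2% of PRG2 cells.

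Counted with at least 1 UMI of each gene, the ribonuclease genes paired with each other and not with EPX. RNASE2 was found in 895 of the 987 RNASE3 cells (90.7%), 2.25 times (2.10 to 2.40) the independent count. EPX and RNASE2 shared 526 cells, 0.984 times (0.901 to 1.07) the independent count, and PRG2 and RNASE2 433 cells, 1.40 times (1.27 to 1.53). Of the 1332 EPX cells 743 had a single UMI, so the EPX ratio does not describe the cells with more. RNASE2 at 3 UMIs is given below for the cells rich in EPX, PRG2 and CLC. SIGLEC8 was seen with RNASE2 in 24 cells, 0.363 times (0.233 to 0.541), and with IL5RA in 13 cells, 3.85 times (2.05 to 6.59). CCR3 shared at most 30 cells with any member, and the interval of its ratio included 1 for all 8 pairs. Within the 117 CPA3-positive cells the ratios were smaller, with 28 of 30 IL5RA cells also having CLC (1.82 times, 1.21 to 2.62), 48 cells sharing PRG2 and PRG3 (1.51 times, 1.11 to 2.00) and 59 sharing EPX and PRG2 (1.29 times, 0.982 to 1.66).

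Cells with at least 3 UMIs each of at least 2 of EPX, PRG2 and CLC, called eosinophil-gene cells here, numbered 269 (3.56%, 3.16 to 4.01%), of which 151 had all 3. The genes that chose these cells are high in them by construction, at 1716 CPM for EPX, 518 for PRG2 and 3863 for CLC, and the median cell held 18 UMIs of EPX, 8 of PRG2 and 35 of CLC. Of the members not used in the choice, PRG3 was 1599 against 7.87 CPM in the other cells (203-fold), IL5RA 34.8 against 0.417 CPM (83.5-fold, 61.7 to 114), RNASE2 298 against 102 CPM (2.91-fold), RNASE3 24.9 against 11.4 CPM (2.19-fold) and SIGLEC8 3.35 against 1.13 CPM (2.97-fold, 1.72 to 4.86). Of all genes, 3.41% were at least 2-fold higher in these cells. RNASE2 had at least 3 UMIs in 52.0% of these cells and in 21.0% of the other cells. CCR3 had 2 UMIs in the 269 cells (0.372 against 0.549 CPM, interval of the ratio 0.0807 to 2.54). CCR3 and SIGLEC8, receptors of mature eosinophils, were thus scarce in the cells with the granule transcripts, with 2 and 18 UMIs in 269 cells. Of the 269 cells, 3 were called doublets by Scrublet, and the median depth of 19826 UMIs was near the 18259 of the other cells.

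The order in which IL5RA, CLC, PRG2 and EPX appeared was read from cells ranked by the summed UMIs of the other granule genes. This is an order along a level in cells of a single day and not a time course. With the 6 granule and ribonuclease genes as the axis, each of the 4 genes, over all cells, stayed below 10% of its top level until the last bin of 30 UMIs or more, at 6.22% (IL5RA), 5.68% (CLC), 5.59% (PRG2) and 2.71% (EPX) in the bin of 10 to 29 UMIs. At 4 to 9 UMIs PRG2 was first with 2.67%, ahead of IL5RA (1.39%), EPX (0.862%) and CLC (0.722%), so the order of the genes differed between the bins. In hashtag 0252 alone, IL5RA (11.6%) and CLC (10.1%) were past 10% at 10 to 29 UMIs and PRG2 (6.58%) and EPX (3.10%) were not. Many cells on that axis owed their place to RNASE2. With EPX, PRG2, PRG3 and CLC alone as the axis, also chosen once the data had been seen, the genes lay further apart. At 4 to 9 UMIs of the others, PRG2 had reached 11% of its top level (67.8 CPM, 194 cells), EPX 7.06% (160.1 CPM, 129 cells), IL5RA 5.95% (2.42 CPM, 238 cells) and CLC 2.42% (127 CPM, 238 cells). At 2 to 3 UMIs, CLC was 9.27 CPM, beside 8.39 CPM in cells with none of the others (intervals 7.23 to 11.7 and 7.83 to 8.98), whereas PRG2 was 19.3 against 2.80 CPM, EPX 48.1 against 11.2 CPM and IL5RA 1.13 against 0.168 CPM. The bins do not limit the gene itself, so cells rich in that gene alone can lie in the low bins. For CLC, 26 cells that had only CLC of EPX, PRG2 and CLC at 3 UMIs held 480 CLC UMIs. Their part in the level of CLC in the low bins was not tested. At 10 to 29 UMIs CLC stood at 1504 CPM, 28.6% of its top level, beside 35.6% for IL5RA, 33.2% for PRG2 and 22.4% for EPX.

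The axes of the 4 genes are not the same sum, since each leaves out its own gene, so pairs were also compared at equal abundance, with the more abundant gene scaled down to the UMI total of the other. In this comparison 569 cells had PRG2 without CLC against 123 with CLC without PRG2, and 1073 had EPX without CLC against 313 with CLC without EPX. EPX and PRG2 were nearly even, with 389 cells against 449. IL5RA was nearly even with PRG2 (105 against 116 cells) and EPX (109 against 95.5 cells), and more often found without CLC than CLC without it (102 against 54.8 cells). In each of its 3 pairs CLC was less often found alone than its partner after scaling. Scaling removes many of the 630 cells with a single CLC UMI, since 95.8% of its UMIs lay in 184 cells. The scaled counts therefore cannot tell an order from this uneven spread. Unscaled and at 1 UMI, more cells had CLC (891) than PRG2 (767), so CLC without PRG2 was the more frequent of that pair. Without scaling and with at least 3 UMIs, 132 cells had PRG2 without CLC and 58 the reverse, 246 had EPX without CLC and 40 the reverse, and 206 had EPX without PRG2 and 74 the reverse. Both EPX counts include the same 174 cells, which had only EPX of these 3 genes at 3 UMIs. These cells numbered 21, 10, 56 and 87 in hashtags 0252 to 0255 and are described further below. Whether they are an early stage of the other cells was not tested. PRG2 led at 4 to 9 UMIs in hashtag 0252 (19.3% of its top level, with IL5RA at 11%, EPX at 8.98% and CLC at 3.93%) and in hashtag 0253 (19.0%, with EPX at 7.31%, CLC at 6.53% and IL5RA at 5.40%). In hashtag 0254 IL5RA was at 10.7%, PRG2 at 6.70%, EPX at 4.84% and CLC at 1.15%, and hashtag 0255 had fewer than 20 cells in its upper bins. The IL5RA shares rest on few UMIs. Over all hashtags it was seen in 4.62% of the 238 cells of this bin, at 2.42 CPM (1.21 to 4.33), and 60 of these cells were of hashtag 0254. When each cell was thinned to 5000 UMIs, with 10 random draws, PRG2 reached 23.0% to 32.3% of its top level in the bin of 4 to 9 UMIs, CLC 20.4% to 33.2%, EPX 14.9% to 19.5% and IL5RA 6.72% to 45.7%. PRG2 was ahead of CLC in this bin in 7 of the 10 draws, and in 10 of 10 at 2 to 3 and at 10 to 29 UMIs. EPX was ahead of CLC at 2 to 3 UMIs and behind it at 4 to 9 in all 10 draws. The bins of thinned cells hold different cells, so the place of CLC in the order depended on depth and that of IL5RA could not be read.

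Other transcripts shifted along the summed EPX, PRG2, PRG3 and CLC counts. GATA2, a transcription factor of progenitors, mast cells and eosinophils, rose from 88.8 CPM in the 4894 cells with none of them to 332 CPM at 4 to 9 UMIs and was 334 CPM in the 126 cells with 100 or more. CD34 was 117 CPM at 0 and 55.0 CPM at 100 or more, and CPA3 went from 4.15 to 75.3 CPM. RNASE2 was between 88.9 and 106 CPM up to 9 UMIs and reached 385 CPM at 100 or more. The azurophil genes peaked in different bins, ELANE in the middle and AZU1 and PRTN3 at 30 to 99 UMIs. ELANE was 14.034 CPM at 0, 55.4 at 2 to 3, 23.8 at 10 to 29 and 4.13 at 100 or more. AZU1 was 80.8 CPM at 0, 298 at 4 to 9, 235 at 10 to 29, 314 at 30 to 99 and 197 at 100 or more. PRTN3 was 849 CPM at 0, 2969 at 30 to 99 and 2069 at 100 or more. The part of azurophil-gene cells in the order of the genes was not tested. In CPA3-positive or CD34/GATA2-positive cells alone, PRG2 was highest (14.1% of its top level) and CLC lowest (3.10%) at 4 to 9 UMIs. IL5RA was seen in 53.6% of the 125 cells with all of EPX, PRG2, PRG3 and CLC at 3 UMIs, at 51.4 CPM, against 0.237 CPM in the 6976 cells with none at that level.

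The hashtags fell into a higher and a lower pair for most of the genes. PRG2 was 32.8 and 36.8 CPM in hashtags 0252 and 0253 and 17.4 and 8.48 CPM in 0254 and 0255. PRG3 was 77.7, 113, 50.8 and 14.5 CPM, the widest range, 7.80-fold (7.05 to 8.64) between 0253 and 0255. EPX was 105.9, 103, 52.5 and 39.5 CPM in the same order, and CLC 169, 244, 90.4 and 91.7 CPM. Among these only the EPX values of 0252 and 0253 and the CLC values of 0254 and 0255 had overlapping intervals. RNASE2 was 156, 155, 57.5 and 45.2 CPM and RNASE3 17.8, 17.7, 4.87 and 4.24 CPM. IL5RA was 2.18, 2.70, 0.922 and 0.701 CPM. SIGLEC8 (0.891, 1.20, 1.53 and 1.30 CPM) and CCR3 (0.569, 0.624, 0.490 and 0.456 CPM) had overlapping intervals throughout. For SIGLEC8 the ratio of its highest to its lowest hashtag, 0254 to 0252, was 1.71 (1.10 to 2.70). Its ratio of hashtags 0252 and 0253 to 0254 and 0255 was 0.730 (0.535 to 0.996), opposite in direction to the other genes. Pooled, hashtags 0252 and 0253 were, in a pairing chosen after the values were seen, at least 2-fold above 0254 and 0255 for 7 of the 9 genes, from 2.24-fold for EPX to 3.87-fold for RNASE3. Of all genes tested, 1.78% were past that ratio, and 10.1% differed at least 2-fold between their highest and lowest hashtag.

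**Figure D2:**
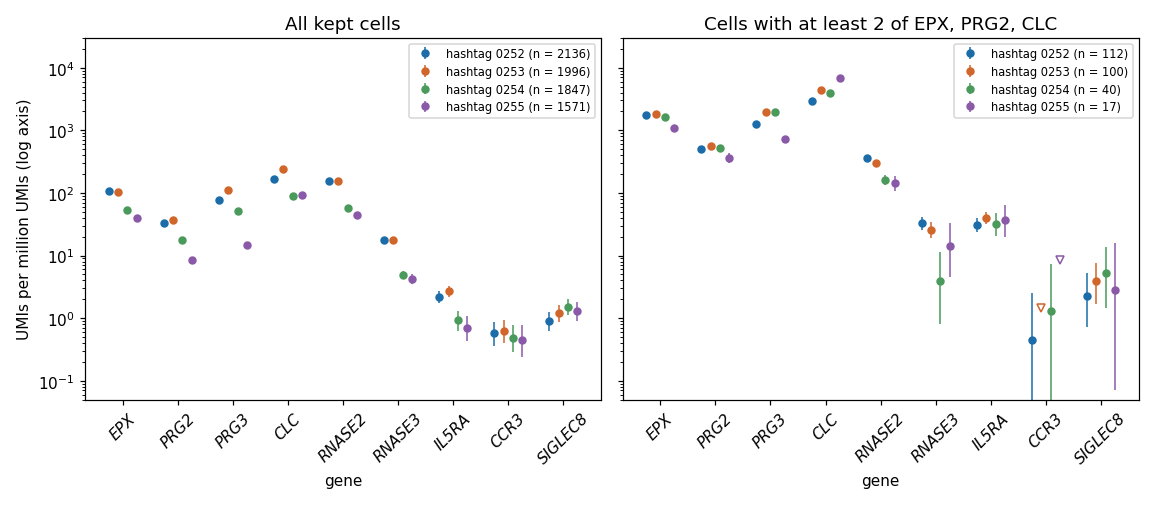
Level of each gene by hashtag (CPM, log axis, exact Poisson 95% intervals, open triangles at the level that 3 UMIs would give where none was found) in all kept cells on the left and in the eosinophil-gene cells on the right. The gap between hashtags 0252 and 0253 and hashtags 0254 and 0255 seen on the left is absent on the right for IL5RA and present for RNASE2 and RNASE3, and the values of EPX, PRG2 and CLC on the right are partly set by the choice of cells.

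Within the eosinophil-gene cells the hashtags compared differently from gene to gene. The levels of EPX, PRG2 and CLC there are partly set by the choice of cells and are given as a description. IL5RA, which was not used in the choice, was 31.1, 39.6, 31.7 and 37 CPM in hashtags 0252 to 0255 with overlapping intervals, and its ratio of hashtags 0252 and 0253 to 0254 and 0255 was 1.05 (0.732 to 1.56). PRG3, also not used, was 1284, 1954, 1970 and 722 CPM, so that a pooled ratio of 1.02 stood beside a low value in hashtag 0255. The ribonuclease genes kept their gap, with RNASE2 at 362, 306, 159.6 and 142 CPM (ratio 2.17, 1.85 to 2.56) and RNASE3 at 29.5 against 7.21 CPM in the pooled pairs (ratio 4.10, 2.02 to 9.70). EPX was 1769.8, 1798, 1623 and 1098 CPM and PRG2 495, 565, 529 and 364 CPM, whereas CLC was 2911, 4363, 3923 and 6839 CPM, highest in hashtag 0255. The number of such cells differed as well, at 112, 100, 40 and 17, or 5.24%, 5.01%, 2.17% and 1.08% of the cells of each hashtag. All values of hashtag 0255 rest on 17 cells.

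EPX also had a second pattern, opposite to the first. Of the 429 cells with at least 3 EPX UMIs, 174 had fewer than 3 of PRG2 and of CLC, against 60 such cells for PRG2 and 26 for CLC. These EPX-alone cells numbered 21, 10, 56 and 87 in hashtags 0252 to 0255, or 0.983%, 0.501%, 3.03% and 5.54% of cells, so they were fewer in hashtags 0252 and 0253, where eosinophil-gene cells were more frequent, than in 0254 and 0255. The cells with EPX at 3 UMIs and no UMI at all of PRG2, PRG3 or CLC showed a wider gap, at 4, 2, 26 and 53 cells. Together the 2 patterns left the share of cells with at least 3 EPX UMIs nearly level, at 5.99%, 5.26%, 5.09% and 6.49% with overlapping intervals. Outside the eosinophil-gene cells, EPX was 21.5 CPM in hashtags 0254 and 0255 and 8.47 CPM in 0252 and 0253 (ratio 0.394, 0.358 to 0.433), while PRG2, PRG3 and CLC had ratios of 1.28, 1.24 and 1.77. The levels of EPX, PRG2 and CLC there are partly set by the choice of cells as well, so they restate the counts above. Over 10 draws of cells thinned to 5000 UMIs, the EPX-alone cells numbered 12 to 21, 9 to 15, 9 to 16 and 15 to 26 in hashtags 0252 to 0255, with ranges that overlapped. Thinning also moves cells between the classes. The eosinophil-gene cells numbered 59 to 68, 54 to 64, 22 to 27 and 8 to 12 in these draws, against 112, 100, 40 and 17 before thinning. The thinned EPX-alone class can therefore hold other cells, and its counts cannot decide on the gap. The cells with no PRG2, PRG3 or CLC UMI numbered 1 to 6, 0 to 2, 2 to 9 and 10 to 17, and hashtag 0255 stood above 0252 and 0253 in every draw.

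The EPX-alone cells have few PRG2 and CLC UMIs by their choice, so these levels are a description. Their EPX count had a median of 4 and a maximum of 28 UMIs, at 288 CPM, where eosinophil-gene cells had a median of 18. PRG2 was 18.9 CPM in them, still 5.70-fold above the 3.32 CPM of cells with none of EPX, PRG2 and CLC at 3 UMIs. PRG3 was 23.7 CPM and CLC 8.20 CPM, and the CLC level was not compared with cells under the same limit on CLC. IL5RA had 8 UMIs in the 174 cells. CCR3 had none. RNASE2 in these cells was higher in hashtags 0252 and 0253 (15.1-fold against 0254 and 0255), on 124 UMIs in 37 of the 174 cells. The top 2 cells carried 21.8% of these UMIs, and over all kept cells the same ratio was 3.00. GATA2 was 379 CPM in EPX-alone cells, 336 CPM in eosinophil-gene cells and 105 CPM in the cells with none of EPX, PRG2 and CLC at 3 UMIs. CEBPE, the C/EBPε gene, was 37.2, 240.3 and 8.67 CPM in the same order, PRTN3 597, 2629.6 and 967 CPM and CPA3 35.3, 60.5 and 5.33 CPM.

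Related genes from 6 lists were compared between the 269 eosinophil-gene cells and the other cells, for genes with at least 50 UMIs, beside a median ratio of 0.961 over all genes, of which 3.41% were at least 2-fold higher and 15.5% at least 2-fold lower. Of 12 eosinophil transcription factors and related regulators, 4 were at least 2-fold higher and 1 at least 2-fold lower, with a list median of 1.08. CEBPE, needed for granule formation, was 240.3 against 10.4 CPM (23.2-fold), IKZF2, which encodes Helios, 3.75-fold, GATA2 2.96-fold and LMO4 2.80-fold higher, and TRIB1, a pseudokinase that lowers C/EBPα protein, was 2.07-fold lower. GATA1 had a ratio of 1.67 and CEBPA of 1.03. Of 13 receptor and surface genes, 5 were higher and 1 lower (list median 1.43). HRH4, a histamine receptor, was 47.4-fold (29.6 to 77.1), CSF2RB, the signalling chain shared by the IL-3, IL-5 and GM-CSF receptors, 6.37-fold and PTGDR2, a prostaglandin D2 receptor, 3.56-fold higher, and CCR1 was 4.02-fold lower. The ligand-binding chains IL3RA (9.67 against 16.7 CPM) and CSF2RA (11 against 21.6 CPM) were lower by less than 2-fold.

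Of 9 measured mast cell and basophil genes, 7 were at least 2-fold higher and none lower (list median 3.73), among them CPA3 (60.5 against 6.62 CPM, 9.13-fold), SLC45A3 (6.51-fold), HPGDS, a prostaglandin D synthase (5.31-fold), and MS4A3 (4.66-fold). The defining tryptase and IgE receptor genes were low in absolute level in the eosinophil-gene cells, but not all were lower than elsewhere. TPSAB1, 1 of the 7, was 2.42 against 1.12 CPM (2.16-fold, 1.13 to 3.81), MS4A2, with 37 UMIs in all cells, 1.12 against 0.227 CPM (4.92-fold, 1.68 to 12) and FCER1A 0.930 against 1.85 CPM. Of 8 azurophil granule genes, 4 were higher and 1 lower (list median 2.24), namely SRGN, the granule proteoglycan serglycin (5.44-fold), PRSS57 (2.90-fold), PRTN3 (2.66-fold) and AZU1 (2.62-fold), with ELANE 2.43-fold lower. Late neutrophil genes were mostly lower, 5 of 7 with 1 higher (list median 0.292). LCN2 had no UMI, against 1.62 CPM in the other cells (interval of the ratio 0 to 0.426). MMP9 was 12.6-fold, DEFA3 10.7-fold and S100A8 3.43-fold lower. CAMP, with 8 UMIs in the eosinophil-gene cells, was 4.15-fold higher (1.70 to 8.84). Of 7 lipid mediator and enzyme genes, 2 were higher and none lower (list median 1.30). ALOX15, the 15-lipoxygenase of eosinophils, had 59 of its 66 UMIs in the eosinophil-gene cells (214-fold, 97.8 to 556), and ALOX5 was 2.26-fold higher, while the ratios of ALOX5AP and LTC4S were 1.69 and 1.30. The part of these other lineage transcripts in the levels of the members was not tested.

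Across the 7550 cells, which share 1 library and differ in depth, the genes whose scaled counts correlated best with the sum of the members were SRGN (Pearson r = 0.648), MS4A3 (0.609), PRTN3 (0.564), MPO (0.524), AZU1 (0.518), CSTA (0.497), CEBPE (0.497), CST7 (0.480), FAM46A (0.471) and P4HB (0.467). The sum includes RNASE2, which was seen in 39.9% of cells and had 10.3% of its UMIs in the eosinophil-gene cells. The part of RNASE2 in these correlations was not tested. Within the set, PRG2 was the member closest to the sum of the others (r = 0.610), followed by PRG3 (0.549), EPX (0.525), CLC (0.476), IL5RA (0.407), RNASE3 (0.400) and RNASE2 (0.263), while SIGLEC8 and CCR3 had an r within 0.01 of 0. IL5RA alone was most like C1orf186 (0.344), KCNH2 (0.289), CPA3 (0.285), CDK15 (0.25) and HPGDS (0.223).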

How the data were processed

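Droplet-based 3′ single-cell RNA sequencing was performed on 1 pooled library of cells from 4 coatings. The authors aligned the reads with Cell Ranger 6.0.1 to hg19, as named in the submitters' processing notes, and deposited unnormalised UMI counts of 32738 genes and 4 hashtags for 10836 barcodes, together with a hashtag call for each barcode. The members and the related lists were chosen with earlier results of these data known. All 9 members were named. From each list the 4 genes with at least 50 UMIs and the largest fold were named, and the 10 genes with the highest correlation with the sum of the members and the 5 with the highest correlation with IL5RA.

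Cells with 1 hashtag call and at most 36000 UMIs, 6000 genes and 18% mitochondrial UMIs were kept. Thinning to 5000 UMIs left 7482 cells and left out 68. UMIs were summed over cells of a group and divided by the summed UMIs of that group. Ratios of levels have exact conditional intervals for 2 Poisson counts. A count of 0 was given the level of 3 UMIs as its limit. Correlations used ln(1 + UMIs per 10000). No test was run, because the hashtags were not paired with coatings and there was 1 library. Scrublet, run by scanpy 1.11.5 at an expected rate of 6%, called 99 of 8488 cells with 1 hashtag doublets (1.17%), and none was removed. Python 3.11.15, numpy 2.4.6, scipy 1.17.1, pandas 2.3.3, matplotlib 3.10.9 and biopython 1.88 were used, and the calculations were checked on simulated counts. 1 gene among those that differed in the EPX-alone cells is not reported here.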

Additional observations from a re-analysis of the deposited data

Results flagged for a closer look

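The members were also present in barcodes that the comparisons did not use. Among 809 hashtag-negative barcodes within the same limits, 40 had at least 2 of EPX, PRG2 and CLC at 3 UMIs (4.94%, 3.56 to 6.67%), and EPX was 85.1 CPM (80.1 to 90.3), PRG3 149 CPM, CLC 350.1 CPM and IL5RA 4.62 CPM. Among 834 hashtag doublets within the limits, 39 did (4.68%, 3.35 to 6.34%), and EPX was 57.2 CPM. In the 7550 cells with 1 hashtag these values were 3.56% and 78.8 CPM for EPX. Neither set has control samples, and both signals lie above the limit that a count of 0 allows.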

How the results depend on the processing

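The alternatives moved the size of most results more often than their direction. The fold of CPA3-positive over CPA3-negative cells was 6.64 for EPX, and it was 3.51 with a single UMI as the threshold, 1.61 with a limit of 10% on mitochondrial UMIs and 5.95 without limits on UMIs or genes. For PRG2 (11-fold) these values were 5.16, 1.94 and 9.55, with 13.1 at 10 UMIs and 13.3 in thinned cells. For CLC (33.1-fold) they were 10.1, 8.80 and 28.1, with 53.5 at 10 UMIs, 40.9 in thinned cells and 30.3 with hashtag-negative barcodes included. For IL5RA (21.2-fold) the fold was 7.78 at 1 UMI, 50.1 at 10 UMIs and 45.5 in thinned cells. The co-detection of EPX and PRG2 (2.89 times) was 6.31 times in thinned cells and 3.30 times at the 10% mitochondrial limit, where 0.577 cells had PRG2 without EPX per cell with EPX without PRG2 (0.392 otherwise). The ratio of the highest to the lowest hashtag for EPX (2.68) was 2.89 in thinned cells and 17.3 at the 10% mitochondrial limit. The direction turned for the CPA3 fold of PRG3 at that limit (0.547) and of SIGLEC8 in thinned cells (0). The cause of these shifts was not tested, but the 10% limit left 736 cells with 6 CPA3-positive cells, thinning 21 and the threshold of 10 UMIs 10.

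Thinned values vary with the random draw. Over 10 draws, chosen after the data were seen, the folds ranged from 3.87 to 10.8 for EPX, 7.64 to 14.7 for PRG2, 27.7 to 67.9 for CLC, 24.6 to 83.8 for IL5RA, 2.18 to 14.7 for PRG3 and 0 to 14 for SIGLEC8. Of 42 alternatives for the values above, 20 stayed within the counting interval and 22 moved, and of 82 for the other values 36 stayed, 44 moved and 2 turned. No paired analysis was possible because the hashtags share 1 pooled library and no result comes from a test. Levels near that of 3 UMIs in a group, as for CCR3 and SIGLEC8, are limited by depth.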

Other observations

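Genes other than the members differed between the 174 EPX-alone cells and the cells with none of EPX, PRG2 and CLC at 3 UMIs. The comparison and the rule, genes from the 10 highest ratios among those with at least 50 UMIs, were chosen after seeing the data. ADCYAP1, the gene of the neuropeptide PACAP, was 67.2 against 4.70 CPM (14.3-fold) and was seen in 34.5% of the EPX-alone cells. HPGDS was 9.36-fold, FST, which encodes the activin-binding follistatin, 9.21-fold, PNMT 7.46-fold, CLNK 6.72-fold, CPA3 6.63-fold, SLC45A3 5.58-fold, a transcript known by a clone name 5.36-fold and TRIB2 5.33-fold higher. CLNK was 21.1 CPM in EPX-alone cells but 0.930 CPM in eosinophil-gene cells.

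The mast cell genes followed no single order. KIT, the stem cell factor receptor, was 13.9 CPM in EPX-alone cells, 5.39 CPM in eosinophil-gene cells and 8.85 CPM in the cells with none of the 3 genes. TPSAB1, a tryptase gene, was 7.25, 2.42 and 0.720 CPM in the same order, and IL1RL1, the IL-33 receptor, 63.7, 47.1 and 12.2 CPM. HDC, the histamine-forming decarboxylase, was 84.5, 177 and 44.7 CPM, with its highest level in the eosinophil-gene cells. LMO4 was 1367, 1025 and 333 CPM. Of the EPX-alone cells 143 of 174 came from hashtags 0254 and 0255, so these differences cannot be told apart from differences between hashtags.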
